A study of Homo sapiens with 40 samples.

Results

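The DNA replication and S phase genes are 48 genes whose products prepare, start and carry out the copying of the genome, named by symbol and found in all 3 deposited count tables, out of 62754 genes listed there. They were described over all 10 groups of libraries and tested in both QKI knockdowns and among 6 untreated cell lines. QKI (quaking) binds RNA and controls how transcripts are spliced and how long they last, and the study asked about its role in T-ALL, a leukaemia that arises from immature T cells. The groups, of 4 libraries each, were Jurkat cells electroporated with QKI siRNA and with non-targeting control (NTC) siRNA, cells labelled HPB-ALL infected with viral particles carrying the QKI shRNA and the NTC shRNA vectors, and the untreated T-ALL lines KARPAS-45, TALL-1, ALL-SIL, LOUCY, DND-41 and HPB-ALL. Each line is an established human line, and the labels name no further allele or agent. HPB-ALL and KARPAS-45 were grown in 20% serum and the others in 10%.

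In a dividing cell, origin recognition and licensing factors load the ring-shaped MCM helicase onto DNA, and kinases and activating factors then switch it on at the start of S phase. Polymerases, with a sliding clamp and its loader, copy the strands, while nucleotide-making enzymes supply the building blocks and chromatin assembly factors package the product. Many of these genes are transcribed in a wave that E2F transcription factors drive, and T-ALL lines divide continuously.

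The promoters of the members are shown first because E2F factors are known to act there. RefSeq windows of 300 bases, from 250 before to 50 after a gene start on build GRCh38.p14, were found for 42 of 48 members. The words TTTCCCGC, TTTGGCGC, TTTCGCGC and TTTGCCGC, which E2F factors are known to bind, were searched on both strands, and such words can overlap each other. At least 1 of them stood in a window of 22 of 42 members (52.38%), against 5.397% of 15843 protein-coding genes and 3.992% of all 27305 genes with a window. The 30 words found lay at a median of 37 bases before the start (position -37), and 23 of them between positions -100 and 50. CCAAT, the word bound by the factor NF-Y, stood in 57.14% of members and 42.14% of protein-coding genes, and TTTGAA, a word of promoters of G2 and M phase genes, in 9.524% and 15.85%. These are matches of letters, not sites.

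The windows below are those of 8 members on which the results turn, 5′ to 3′ in the direction of the gene, with E2F words in capitals (a word on the other strand stands as its reverse complement, as in CDT1). CDT1, EXO1 and MCM10 rose, and UNG and LIG1 fell, in the knockdown labelled HPB-ALL, and TK1 was almost without reads in KARPAS-45. MCM2 and MCM6 had fitted changes of opposite signs in the 2 knockdowns, but neither gene was called in either knockdown. The difference between the knockdowns was not called for them without pairing of libraries (edgeR adjusted p = 0.687 and 0.917). It was called only with the replicate number as a block.
CDT1, chr16:88803539-88803838, plus strand: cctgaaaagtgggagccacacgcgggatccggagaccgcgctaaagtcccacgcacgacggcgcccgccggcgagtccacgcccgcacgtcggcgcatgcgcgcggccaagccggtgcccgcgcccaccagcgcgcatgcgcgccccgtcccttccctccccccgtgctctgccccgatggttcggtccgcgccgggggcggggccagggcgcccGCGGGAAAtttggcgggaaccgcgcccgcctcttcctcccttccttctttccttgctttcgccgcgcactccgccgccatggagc
EXO1, chr1:241847954-241848253, plus strand: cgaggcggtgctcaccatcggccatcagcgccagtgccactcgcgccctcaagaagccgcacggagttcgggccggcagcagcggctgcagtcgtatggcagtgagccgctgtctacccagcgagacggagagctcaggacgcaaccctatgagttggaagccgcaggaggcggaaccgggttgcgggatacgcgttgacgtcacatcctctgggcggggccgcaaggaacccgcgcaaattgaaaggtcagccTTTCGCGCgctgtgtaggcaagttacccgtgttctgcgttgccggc
MCM10, chr10:13161308-13161607, plus strand: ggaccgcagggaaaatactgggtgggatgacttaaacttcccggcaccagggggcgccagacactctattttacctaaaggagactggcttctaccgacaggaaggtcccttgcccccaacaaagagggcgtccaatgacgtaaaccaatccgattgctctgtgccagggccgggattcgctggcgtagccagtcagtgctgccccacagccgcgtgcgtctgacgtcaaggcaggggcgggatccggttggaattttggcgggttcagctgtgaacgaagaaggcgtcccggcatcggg
UNG, chr12:109097922-109098221, plus strand: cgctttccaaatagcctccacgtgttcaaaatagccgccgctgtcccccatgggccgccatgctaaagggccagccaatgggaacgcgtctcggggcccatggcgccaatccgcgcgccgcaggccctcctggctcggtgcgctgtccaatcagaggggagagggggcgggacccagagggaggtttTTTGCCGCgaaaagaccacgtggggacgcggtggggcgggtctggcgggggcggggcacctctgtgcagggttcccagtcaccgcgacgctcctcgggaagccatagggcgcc
LIG1, chr19:48170295-48170594, minus strand: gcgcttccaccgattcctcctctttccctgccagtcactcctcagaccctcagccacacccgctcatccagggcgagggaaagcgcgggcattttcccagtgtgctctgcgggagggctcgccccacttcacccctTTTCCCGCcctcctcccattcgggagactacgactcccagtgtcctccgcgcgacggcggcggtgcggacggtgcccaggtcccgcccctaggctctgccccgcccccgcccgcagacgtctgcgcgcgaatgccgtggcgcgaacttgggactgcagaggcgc
MCM2, chr3:127598161-127598460, plus strand: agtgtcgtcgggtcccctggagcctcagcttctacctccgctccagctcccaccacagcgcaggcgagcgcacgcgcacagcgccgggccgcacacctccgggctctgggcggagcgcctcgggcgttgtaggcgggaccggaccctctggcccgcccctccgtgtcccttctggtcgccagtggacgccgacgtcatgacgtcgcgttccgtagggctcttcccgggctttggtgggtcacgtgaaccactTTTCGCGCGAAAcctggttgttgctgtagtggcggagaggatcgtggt
MCM6, chr2:135876394-135876693, minus strand: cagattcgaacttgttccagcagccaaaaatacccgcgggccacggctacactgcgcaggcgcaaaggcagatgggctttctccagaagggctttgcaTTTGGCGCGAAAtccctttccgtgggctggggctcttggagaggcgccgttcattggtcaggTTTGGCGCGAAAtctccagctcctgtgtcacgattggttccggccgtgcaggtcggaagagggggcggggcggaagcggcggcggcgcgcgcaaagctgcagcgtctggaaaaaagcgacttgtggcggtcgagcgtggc
TK1, chr17:78187155-78187454, minus strand: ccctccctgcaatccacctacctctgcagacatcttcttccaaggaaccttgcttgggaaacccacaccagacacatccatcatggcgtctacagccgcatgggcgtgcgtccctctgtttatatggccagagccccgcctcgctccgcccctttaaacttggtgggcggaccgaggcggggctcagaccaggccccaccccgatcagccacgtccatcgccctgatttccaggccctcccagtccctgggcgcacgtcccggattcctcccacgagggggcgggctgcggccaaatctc
CDT1 and UNG hold 1 word each, as do EXO1 and LIG1. MCM2 holds 2 overlapping words just past its start and MCM6 holds 4, in 2 overlapping pairs, while MCM10 and TK1 hold none in these windows. UNG, EXO1 and TK1 have 2 windows in the table, and the one shown is the one with the word for UNG and EXO1. Among members called higher in that knockdown, 8 of 17 with a window held a word, among those not called 12 of 23, and both of those called lower.

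Depth and labels were checked over the whole series. The columns of the Jurkat control libraries are headed shNTC, whereas their sample labels give NTC siRNA, and the labels were followed here. Counts assigned to genes ranged from 68379879 to 134209287 per Jurkat library, from 81048583 to 134916505 per library labelled HPB-ALL and from 44093984 to 83952970 per library of the untreated lines. Among these lines KARPAS-45 was the deepest, with at least 75590693 counts per library, against at most 64789164 in the others. QKI, the targeted gene, had 24.9, 17.5, 18.2 and 25.3 CPM (counts-per-million reads, a gene count as a share of the normalized library total) in Jurkat QKI siRNA libraries, against 148, 176, 137 and 133 in NTC siRNA libraries. In the libraries labelled HPB-ALL it had 54.6, 54.9, 55.9 and 57.7 CPM with QKI shRNA, against 105, 103, 101 and 107 CPM with NTC shRNA. The knockdown was therefore deeper in Jurkat (log2 fold change -2.79) than in the libraries labelled HPB-ALL (-0.90), with no overlap of the groups in either. The libraries labelled HPB-ALL went against their label: 0 of 12 T-lineage markers averaged over 1 CPM there, CD28, CD5 and LCK were at 0 in the NTC shRNA libraries, and summed myeloid markers were 3055 CPM with QKI shRNA and 3498 CPM with NTC shRNA. Of 12 myeloid markers, 7 averaged over 1 CPM with QKI shRNA and 8 with NTC shRNA, the highest at 1714 and 1650 CPM. Of 7 B-lineage markers, 5 averaged over 1 CPM in each of these groups, the highest at 8.61 and 10.6 CPM. The untreated HPB-ALL libraries had 11 of 12 T-lineage markers over 1 CPM and 24.8 CPM of summed myeloid markers. There 1 of 12 myeloid and 2 of 7 B-lineage markers were over 1 CPM, the highest at 23.0 and 42.6 CPM. All results of that knockdown below are results of the libraries labelled HPB-ALL, and no result of it could be given without them.

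All 48 members passed the filter on low counts in every comparison. Set per kilobase of exon, the sliding clamp PCNA was the most abundant member in 8 of 10 groups, with 220.4 ± 39.0 CPM per kilobase in Jurkat QKI siRNA libraries, 188.7 ± 2.63 in the labelled HPB-ALL QKI shRNA libraries and 469.6 ± 51.7 in KARPAS-45 (SD, n = 4 each). In the untreated HPB-ALL and DND-41 the thymidylate synthase TYMS ranked above it, at 262 ± 15.04 and 226 ± 13.7 CPM per kilobase. The least abundant member was POLA2, the accessory subunit of the priming polymerase, at 0.49 to 3.06 CPM per kilobase, except in KARPAS-45, where TK1 was lower.

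Summed over the 48 members, the level was 5433, 7260.2, 6386 and 6856 CPM in the 4 Jurkat QKI siRNA libraries, against 5106, 6387, 6055 and 6139.8 CPM in the NTC siRNA libraries of the same numbers. The groups overlap, yet each QKI siRNA library is above the NTC library of its number. In the libraries labelled HPB-ALL the sum was 4261, 4209.6, 4282 and 4249 CPM with QKI shRNA, against 3994, 4209, 3917 and 4222 CPM with NTC shRNA, and these groups overlap as well. Among the untreated lines KARPAS-45 stood apart, with 15383, 15696, 15223 and 14609 CPM. TALL-1 had 7099, 6888, 7627 and 7389 CPM, ALL-SIL 5022, 5822, 8557 and 7955 CPM and LOUCY 5636, 6117, 5547 and 6248 CPM. DND-41 had 5297, 4979, 4883 and 5647 CPM and HPB-ALL 4804, 4390.0, 4860.1 and 4719 CPM. Fewer cells in S phase and less of each RNA per cell cannot be told apart in such bulk libraries. Tables were normalized separately and their libraries made differently, so levels of different tables stand side by side only.

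**Figure D1:**
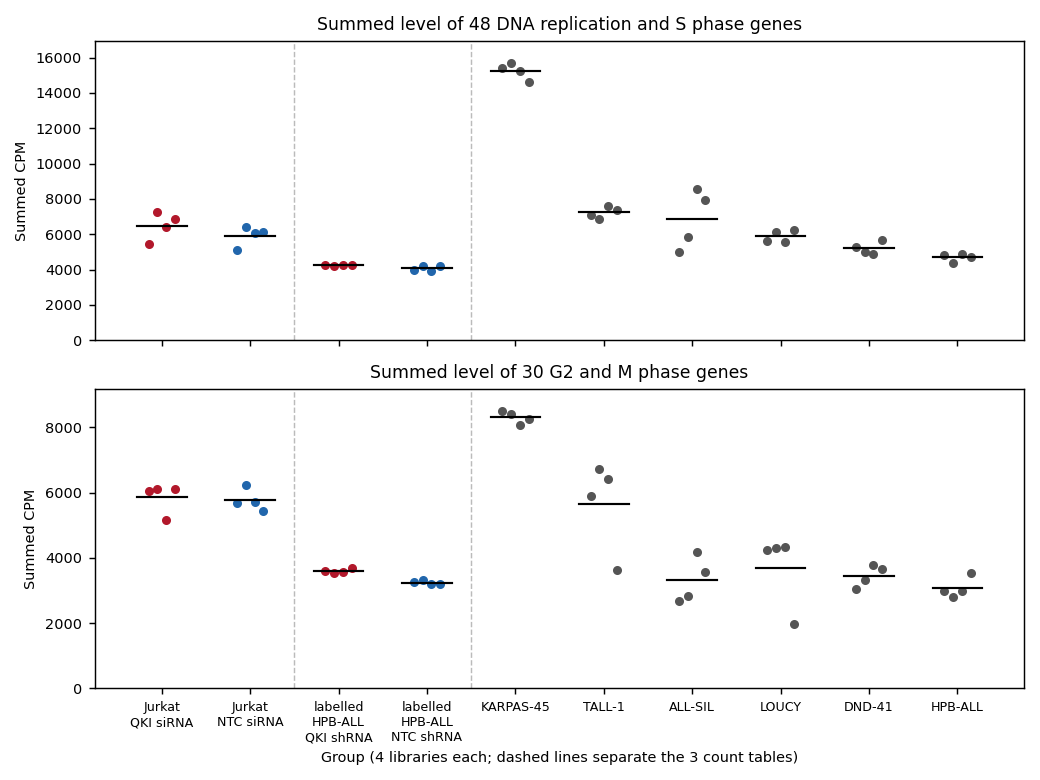
Summed CPM of the 48 DNA replication and S phase genes (upper panel) and of 30 G2 and M phase genes (lower panel) in each library. Dots are libraries, 4 a group, and black lines are group means. KARPAS-45 lies above every other line in both panels, at a mean of 15228 CPM in the upper panel, and 1 library each of TALL-1 and LOUCY lies below the rest of its line in the lower panel.

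In the knockdown labelled HPB-ALL, 19 members were higher and 2 lower with QKI shRNA than with NTC shRNA, of 48 tested (edgeR quasi-likelihood test, adjusted p under 0.05). Over all 17974 genes tested, 12.8% were called higher and 10.4% lower. The median log2 fold change was 0.08 over the members and -0.01 over all genes. The changes were small, of at most 0.56 on the log2 scale. By role, 6 of 8 helicase activators, 3 of 4 nucleotide genes and 2 of 4 licensing genes were higher, and 1 of 6 MCM ring genes, 1 of 5 clamp genes and 1 of 7 polymerase genes. A difference between roles was not tested. Members shown library by library were picked by the p of this same comparison, so separate groups among them add no support. The share of all genes with separate groups was not counted.

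Of the 4 origin recognition and licensing genes, 2 rose. CDT1, which loads the MCM helicase at origins, had 165, 160.4, 172 and 159.9 CPM with QKI shRNA, against 119.6, 125, 122 and 119 CPM with NTC shRNA. Every QKI shRNA library lay above every NTC shRNA library, with a fitted log2 fold change of 0.44 ± 0.04 (± is the SE throughout for fold changes; edgeR adjusted p = 1.5e-05). ORC1, the largest subunit of the origin recognition complex, had 81.95, 87.9, 86.6 and 84.9 CPM with QKI shRNA, against 63.7, 71.6, 69.7 and 65.2 CPM with NTC shRNA. These groups did not overlap either (log2 fold change 0.34 ± 0.04, edgeR adjusted p = 0.000274). ORC6, another subunit of that complex, and CDC6, which works with CDT1 in loading, were not called, with log2 fold changes of 0.08 and -0.09.

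Of the 8 helicase activation genes, 6 were higher and 0 lower. MCM10, a factor needed to start the assembled helicase, had 21.6, 21.6, 21.8 and 22.4 CPM with QKI shRNA, against 16.5, 16.9, 16.2 and 17.3 CPM with NTC shRNA. The groups did not overlap (log2 fold change 0.39 ± 0.04, edgeR adjusted p = 6.63e-05). GINS3, a subunit of the GINS complex that joins the helicase, had 15.9, 15.1, 16.2 and 15.4 CPM with QKI shRNA, against 12.5, 12.96, 12.3 and 13.2 CPM with NTC shRNA. Again no QKI shRNA library fell among the NTC shRNA libraries (log2 fold change 0.30 ± 0.04, edgeR adjusted p = 0.000713). GINS4, the helicase partner CDC45, the S phase kinase CDC7 and its activator DBF4 also rose, by log2 fold changes of 0.21, 0.22, 0.26 and 0.18, each with groups that do not overlap. GINS1 and GINS2 were not called, at 0.18 and -0.13, so subunits of 1 complex had fitted changes of both signs.

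The MCM ring itself was mostly not called. MCM2, MCM3, MCM4, MCM5 and MCM6 had log2 fold changes of -0.12, -0.03, -0.03, -0.09 and -0.12, with edgeR adjusted p between 0.0865 and 0.790. MCM7, the only ring subunit called, had 321, 328, 314 and 311 CPM with QKI shRNA, against 262, 287, 284 and 312 CPM with NTC shRNA, groups that overlap. Its log2 fold change was 0.15 ± 0.05 (edgeR adjusted p = 0.0443), and the call was lost with RLE size factors (adjusted p = 0.0515) and in 7 of the 8 fits that each leave out 1 library, all but that without NTC shRNA replicate 4 (adjusted p up to 0.104).

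Of the 4 genes of nucleotide supply, 3 rose. RRM2, the regulatory subunit of ribonucleotide reductase that is made in S phase, had 233, 212, 226 and 216 CPM with QKI shRNA, against 161, 174, 167 and 167 CPM with NTC shRNA. The groups were separate (log2 fold change 0.41 ± 0.04, edgeR adjusted p = 5.4e-05). The thymidine kinase TK1 rose by 0.20 and TYMS by 0.13, the second losing its call without QKI shRNA replicate 3 (edgeR adjusted p = 0.0558) and with the replicate number as a block (edgeR adjusted p = 0.0623). RRM1, the large reductase subunit, was not called at 0.07. The replication genes also included cyclin E, the partner of the kinase that starts S phase. CCNE2 had 16.2, 17.96, 17.6 and 18.01 CPM with QKI shRNA, against 13.5, 13.7, 12.7 and 13.6 CPM with NTC shRNA, with no overlap (log2 fold change 0.39 ± 0.05, edgeR adjusted p = 0.000233). CCNE1, the other cyclin E gene, had a log2 fold change of -0.20 and was not called (edgeR adjusted p = 0.114), but it was called lower with the replicate number as a block (edgeR adjusted p = 0.0489).

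At the fork, few genes were called. RFC4, a subunit of the loader of the PCNA clamp, had 34.1, 31.8, 33.1 and 35.4 CPM with QKI shRNA, against 28.5, 29.1, 27.9 and 29.03 CPM with NTC shRNA. The QKI shRNA libraries all lay higher (log2 fold change 0.23 ± 0.04, edgeR adjusted p = 0.00229), while PCNA, RFC2, RFC3 and RFC5 were not called and lay between -0.00 and 0.12. Of 7 polymerase and primase genes, POLE, the catalytic subunit of the leading-strand polymerase, rose by 0.17 (edgeR adjusted p = 0.00543) and the other 6 lay between -0.06 and 0.11 and were not called. LIG1, the ligase that seals Okazaki fragments, had 67.2, 66.7, 68.2 and 67.6 CPM with QKI shRNA, against 75.8, 76.99, 70.9 and 74.7 CPM with NTC shRNA. It fell by 0.15 on the log2 scale, with separate groups (edgeR adjusted p = 0.0108). The flap nuclease FEN1 and the single-strand binding subunit RPA2 were not called.

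Repair and checkpoint genes held the largest changes in both directions. EXO1, an exonuclease of mismatch repair and end resection, had 39.3, 38.1, 41.04 and 42.96 CPM with QKI shRNA, against 25.7, 28.7, 26.4 and 28.97 CPM with NTC shRNA. No library of either group crossed into the other (log2 fold change 0.56 ± 0.05, edgeR adjusted p = 3.29e-05). CLSPN, the claspin adaptor of the replication checkpoint, had 39.3, 38.8, 39.6 and 41.2 CPM with QKI shRNA, against 33.6, 34.9, 31.4 and 34.4 CPM with NTC shRNA, again with separate groups (0.24 ± 0.04, edgeR adjusted p = 0.00175). UNG, the glycosylase that removes uracil from DNA, had 55.2, 57.4, 56.04 and 46.6 CPM with QKI shRNA, against 71.9, 73.6, 69.7 and 77.6 CPM with NTC shRNA. All QKI shRNA libraries lay lower, with a log2 fold change of -0.44 ± 0.06 (edgeR adjusted p = 0.00041). BRIP1, a helicase of crosslink repair, rose by 0.21, and the other member of this role was not called. Of 4 genes of chromatin assembly and histone supply, CHAF1A, the large subunit of chromatin assembly factor 1, rose by 0.16 (edgeR adjusted p = 0.00624), and CHAF1B, SLBP and UHRF1 were not called.

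**Figure D2:**
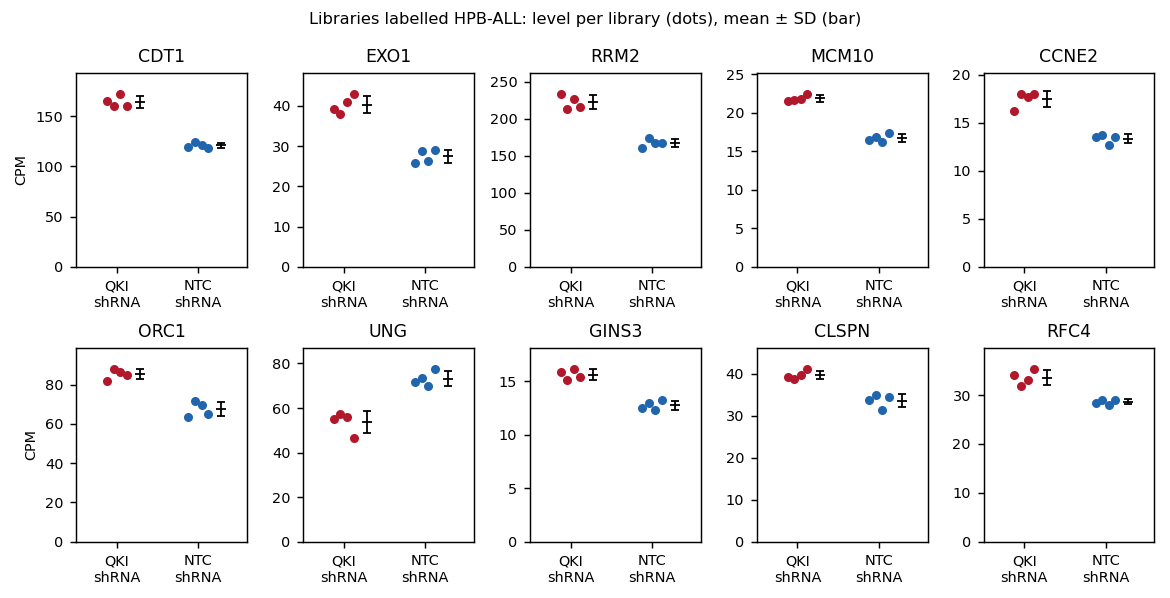
Level in CPM of the 10 members with the smallest p in the libraries labelled HPB-ALL, QKI shRNA left and NTC shRNA right in each panel. Dots are libraries and bars are the mean ± SD of 4. In all 10 panels the groups do not overlap, which choosing by the smallest p favours, and UNG is the only one lower with QKI shRNA.

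Other lists of the cell cycle were set beside all genes in the libraries labelled HPB-ALL, of which 12.8% were called higher and 10.4% lower. Of 34 other replication genes, 11 were higher and 1 lower, led by DONSON, a fork protection factor (log2 fold change 0.27), and RPA1, the large single-strand binding subunit (-0.35). Of 26 genes of G1 to S control, 9 were higher and 3 lower. Among them E2F2, an activating E2F factor, averaged 27.1 ± 0.706 CPM with QKI shRNA and 17.8 ± 1.17 CPM with NTC shRNA (log2 fold change 0.61 ± 0.05, edgeR adjusted p = 1.5e-05), and RBL1, a repressor of E2F targets, was lower (-0.25). Of 29 G2 and M phase genes, 14 were higher and 2 lower, with HJURP, a chaperone of the centromeric histone, at 0.49 and CDCA3 at 0.46. Of 23 replication-dependent histone genes, 10 were higher and 0 lower, at low levels in these polyadenylated libraries, where their sum was 56.5 ± 1.73 CPM with QKI shRNA and 43.1 ± 1.46 CPM with NTC shRNA. The median log2 fold change was 0.07, 0.09, 0.15 and 0.36 over these 4 lists. In the same comparison 6 of 11 myeloid markers, 3 of 5 B-lineage markers and 4 of 12 mitochondrially encoded messenger RNAs were lower and none of these higher, with LYZ at -0.71, and what part such shifts have in the members' changes was not tested.

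In Jurkat cells most fitted values were positive and none passed the test. Without pairing, 0 of 48 members were called by edgeR and 0 had an unadjusted p under 0.05, and DESeq2 gave 0 and 0. Over all 21296 genes, 0% were called higher and 0.0047% lower. Same-numbered QKI and NTC siRNA libraries deviated together from their group means, so the number was also taken as a block. With the block edgeR called 0 members again and 16 of 48 had an unadjusted p under 0.05, against 1416 of 21296 genes (6.65%). Over all genes 0.0047% were called higher and 0.0376% lower. The median log2 fold change with the block was 0.11 over the members and 0.00 over all genes, and 43 of 48 members had a positive one. The members were all measured in the same libraries, so these are not 43 separate results, and the count was not tested. Each p here measures the spread between these cultures only.

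The 5 members with the smallest paired p were MCM6, POLD1, CDT1, MCM2 and MCM7. MCM6 had 286, 409.7, 284 and 306 CPM in QKI siRNA libraries 1 to 4, against 251, 368, 246 and 259 CPM in the NTC siRNA libraries of the same numbers. The groups overlap, with replicate 2 high in both, and each of the 4 pairs was higher with QKI siRNA (log2 fold change 0.20 ± 0.06, edgeR adjusted p = 0.711). MCM2 had 251, 331, 334 and 319 CPM with QKI siRNA, against 231, 288, 263 and 297 CPM with NTC siRNA, and MCM7 had 359, 384, 434 and 433 CPM with QKI siRNA, against 352, 305, 355 and 392 CPM with NTC siRNA. Both were higher in 4 of 4 pairs, by 0.19 and 0.20 on the log2 scale, with groups that overlap. POLD1, the catalytic subunit of the lagging-strand polymerase, had 53.2, 69.8, 38.96 and 45.1 CPM with QKI siRNA, against 41.3, 54.7, 35.8 and 42.6 CPM with NTC siRNA. CDT1 had 80.5, 131, 60.2 and 72.8 CPM with QKI siRNA, against 63.3, 91.7, 56.03 and 70.9 CPM with NTC siRNA. POLD1 and CDT1 were also higher in 4 of 4 pairs, by 0.23 ± 0.07 and 0.25 ± 0.08, and their groups overlap (edgeR adjusted p = 0.735 and 0.741).

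By role, all 6 MCM ring genes had a fitted change between 0.16 and 0.20 in Jurkat and none was called. The 4 nucleotide genes lay between 0.16 and 0.19 and PCNA at 0.22. The helicase activators lay between -0.04 and 0.19, ORC1 and ORC6 at 0.02 and 0.01, and the 5 members with a negative value were GINS4, POLA2, POLE, UHRF1 and CLSPN, down to -0.08. None of the other cell cycle lists had a member called higher with the block, and 1 G1 to S control gene, RBL1, was lower (log2 fold change -0.48, edgeR adjusted p = 0.0408), as it was in the libraries labelled HPB-ALL. Of 12 mitochondrially encoded messenger RNAs, 11 had a negative value and 1, MT-ND6, was called lower, and the summed histone genes ranged from 23850 to 55350 CPM with QKI siRNA and from 16584 to 38608 CPM with NTC siRNA in this total RNA. What part these have in the members' values was not tested.

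**Figure D3:**
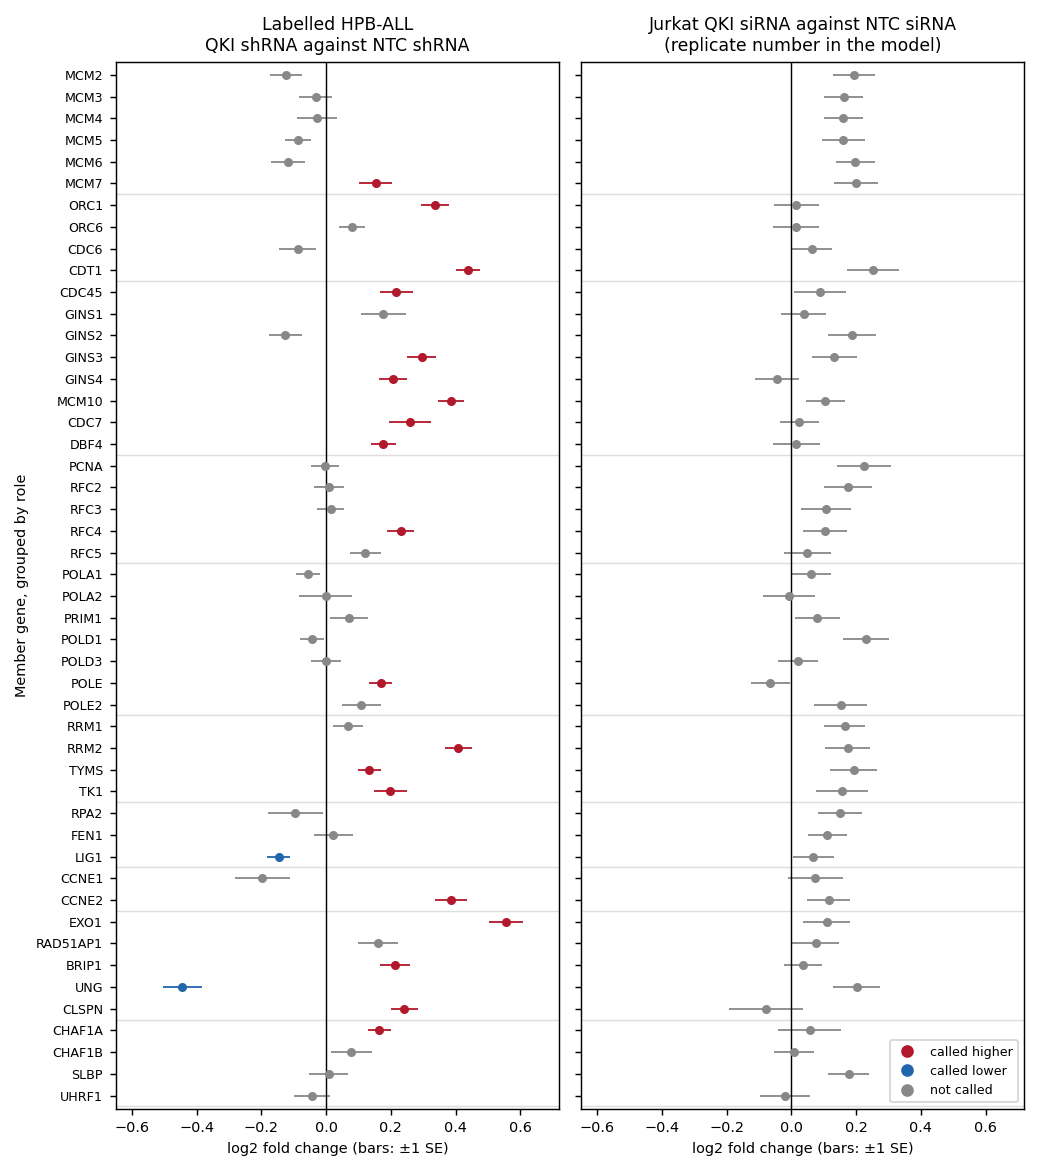
Fitted log2 fold change of each of the 48 members, QKI knockdown over NTC, grouped by role, in the libraries labelled HPB-ALL (left) and in Jurkat with the replicate number in the model (right). Bars are ±1 SE and colours mark calls at an adjusted p under 0.05, of which there are 21 on the left and 0 on the right.

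The difference between the knockdown effects was tested itself, as the labelled HPB-ALL effect minus the Jurkat effect. Without pairing, edgeR called 0 of 48 members and 3 had an unadjusted p under 0.05 (6.17% of all genes had), and DESeq2 called 0 and also had 3 under 0.05. Over all 15730 genes, 0.0127% were called higher and 0.0127% lower. With the replicate number as a block within each experiment, 2 members were called higher and 3 lower, and over all genes 1.25% were called higher and 1.81% lower. The 5 were EXO1 (0.43 ± 0.09, edgeR adjusted p = 0.0304) and MCM10 (0.26 ± 0.07, 0.0476), higher in the libraries labelled HPB-ALL, and UNG (-0.66 ± 0.11, 0.00825), MCM6 (-0.33 ± 0.07, 0.0260) and MCM2 (-0.33 ± 0.08, 0.0412), lower there. The block also paired the libraries labelled HPB-ALL, whose same-numbered libraries did not deviate together. Both experiments shared 1 fitted spread per gene. The SD of the summed members was 30.4 CPM with QKI shRNA and 154 CPM with NTC shRNA, against 786 CPM with QKI siRNA and 562 CPM with NTC siRNA. The 5 calls were not made without the block.

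The values behind the difference are as follows for members with the smallest unpaired p. UNG, already seen to fall in the libraries labelled HPB-ALL, had 111, 143, 193 and 188 CPM in Jurkat QKI siRNA libraries, against 103, 106, 167 and 182 CPM in NTC siRNA libraries, higher in each of the 4 pairs. MCM2, likewise higher in each Jurkat pair, had 202, 207, 209 and 213 CPM with QKI shRNA in the libraries labelled HPB-ALL, against 218, 248, 210.4 and 230.4 CPM with NTC shRNA, where all but 1 of the NTC libraries lay above the QKI libraries. MCM5, another ring subunit, had 156, 196, 236 and 225 CPM with QKI siRNA in Jurkat, against 152, 169, 189 and 214 CPM with NTC siRNA. In the libraries labelled HPB-ALL it had 103, 102, 106 and 103 CPM with QKI shRNA, against 103, 116, 112 and 109 CPM with NTC shRNA, and the 2 groups of each experiment overlap. EXO1 had 102, 165, 144 and 152 CPM with QKI siRNA in Jurkat, against 101, 137, 154 and 128 CPM with NTC siRNA. The groups of EXO1 overlap. CLSPN had 123, 109, 106 and 114 CPM with QKI siRNA in Jurkat, against 124, 169, 103 and 93.7 CPM with NTC siRNA, where NTC replicate 2 stood above all others. MCM6, called only with the block, had 374, 347, 335 and 361 CPM with QKI shRNA in the libraries labelled HPB-ALL, against 388, 396, 348 and 406 CPM with NTC shRNA. MCM10, likewise, had 112, 167, 137 and 143 CPM with QKI siRNA in Jurkat, against 99.99, 159, 131 and 131 CPM with NTC siRNA, higher in each of the 4 pairs. Cell type, knockdown method, depth of knockdown and library kind all differ between the experiments and cannot be told apart.

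Among the 6 untreated lines every member differed (edgeR F test, 48 of 48 called, against 98% of all 20348 genes). The highest line mean of a member was a median of 3.23 times its lowest, against 4.28 times over 16869 genes, and the range ran from 1.52 times for GINS2 to 3246 times for TK1. KARPAS-45 had the highest mean for 39 of 48 members and the lowest for 1, TK1. HPB-ALL had the lowest mean for 19 members and ALL-SIL for 15. QKI was at 6.18, 7.74, 6.04 and 6.86 CPM in KARPAS-45 and had 0 counts in all 4 LOUCY libraries, against line means of 88.0 to 161.6 CPM in the other 4 lines. Of the 2 lines with little or no QKI, KARPAS-45 had the highest sum of members, while LOUCY lay between the others.

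KARPAS-45 had 43 members higher and 3 lower than the mean of the other 5 lines, against 39% and 34.2% of all genes. The median log2 fold change was 1.05 over the members and -0.07 over all genes. Every MCM ring gene, licensing factor, helicase activator, repair and checkpoint gene and chromatin assembly gene was called higher, as were all 3 genes of strand processing. UHRF1, which guides maintenance methylation of newly copied DNA, had 1416, 1539.6, 1447 and 1383 CPM in KARPAS-45. It had 260.5, 337, 544 and 317 CPM in ALL-SIL, 318, 317, 385 and 236 CPM in TALL-1, 108, 118, 119.7 and 86.99 CPM in HPB-ALL, 98.5, 134, 111 and 79.9 CPM in LOUCY and 105, 89.2, 87.8 and 93.4 CPM in DND-41. KARPAS-45 lay above all other libraries, by a log2 fold change of 3.13 ± 0.12 against the mean of the other lines (edgeR adjusted p = 1.19e-17). ALL-SIL did not differ from TALL-1 beyond its spread, nor did the 3 lowest lines differ between neighbours.

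RRM1 had 714, 697, 678 and 654 CPM in KARPAS-45, a log2 fold change of 2.77 ± 0.11 (edgeR adjusted p = 4.54e-17). It had 160.2, 172, 185 and 149 CPM in TALL-1, 134, 165, 149 and 137 CPM in LOUCY, 77.4, 84.8, 85.00 and 104 CPM in DND-41, 60.2, 62.5, 62.6 and 93.1 CPM in HPB-ALL and 46.8, 53.9, 98.2 and 75.6 CPM in ALL-SIL. KARPAS-45 stood alone, TALL-1 and LOUCY formed a middle level, and neighbours among the 3 lowest lines did not differ (edgeR adjusted p = 0.0936 and 0.949). RRM2 was also higher in KARPAS-45, at 932 ± 59.7 CPM (log2 fold change 2.17 ± 0.17), so both reductase subunits were.

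Of the MCM ring genes, all 6 had their highest mean in KARPAS-45 and their lowest in HPB-ALL, and the lines between them changed places. MCM6 had 995, 973, 936 and 935 CPM in KARPAS-45, against 217, 238, 203 and 359 CPM in LOUCY, 209, 230.0, 305 and 230.0 CPM in ALL-SIL, 237, 207, 253 and 224 CPM in TALL-1, 198, 205, 207 and 181 CPM in DND-41 and 121, 120.4, 139 and 121 CPM in HPB-ALL. KARPAS-45 lay above the other lines (2.23 ± 0.09, edgeR adjusted p = 1.07e-16), HPB-ALL below DND-41 (adjusted p = 0.00025), and the 4 lines between them did not differ from their neighbours. MCM2 had 671, 726, 709 and 698 CPM in KARPAS-45, against 336, 403, 334 and 445 CPM in LOUCY, 297, 310.4, 497 and 350.0 CPM in ALL-SIL, 202, 172, 228 and 211 CPM in TALL-1, 102, 140.4, 131 and 120.4 CPM in DND-41 and 98.4, 88.2, 99.5 and 78.96 CPM in HPB-ALL. Only LOUCY and ALL-SIL were neighbours that did not differ (edgeR adjusted p = 0.731). The sequence shown above for MCM2 and that for MCM6 both carry overlapping E2F words. RRM1 and RRM2, also higher in KARPAS-45, hold no such word in their windows, and a link between words and levels was not tested.

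MCM4 had 767, 808, 848 and 819.6 CPM in KARPAS-45, against 327, 382, 652 and 473 CPM in ALL-SIL, 299.9, 268, 335 and 294 CPM in TALL-1, 231, 269, 211 and 278 CPM in LOUCY, 162, 144, 133 and 156 CPM in DND-41 and 105, 112, 134 and 93.2 CPM in HPB-ALL. Of its neighbours, TALL-1 and LOUCY did not differ. MCM5 had 764, 779, 761 and 692 CPM in KARPAS-45, against 271, 311, 447 and 371 CPM in ALL-SIL, 279.9, 241, 325 and 335 CPM in TALL-1, 214, 249.6, 181 and 343 CPM in LOUCY, 157, 172, 148 and 135 CPM in DND-41 and 124, 99.9, 106 and 107 CPM in HPB-ALL. Its 3 middle lines did not differ between neighbours. MCM3 had 976, 922, 908 and 937 CPM in KARPAS-45, against 319, 373, 614 and 449 CPM in ALL-SIL, 385, 352, 439 and 467 CPM in TALL-1, 269, 282, 242 and 397 CPM in LOUCY, 232, 206, 207 and 196 CPM in DND-41 and 158, 144, 170.3 and 131 CPM in HPB-ALL. ALL-SIL and TALL-1 did not differ for MCM3 (edgeR adjusted p = 0.637). For these 5 genes the mean of DND-41 came just above that of HPB-ALL. The mean of LOUCY came next to KARPAS-45 for MCM2 and MCM6 and after ALL-SIL and TALL-1 for MCM3, MCM4 and MCM5. For MCM2 and MCM6 LOUCY did not differ from ALL-SIL, the line after it (edgeR adjusted p = 0.731 for each). Its mean for MCM6 was lifted by replicate 4, the highest LOUCY library. MCM7 kept another order, with means of 1210 ± 83.1 CPM in KARPAS-45, 582 ± 54.9 CPM in TALL-1, 574 ± 107 CPM in ALL-SIL, 317 ± 54.3 CPM in DND-41, 253 ± 63.3 CPM in LOUCY and 211 ± 11.2 CPM in HPB-ALL, of which the 3 lowest did not differ between neighbours. ALL-SIL replicate 3 was the highest library of its line for the first 5 genes.

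**Figure D4:**
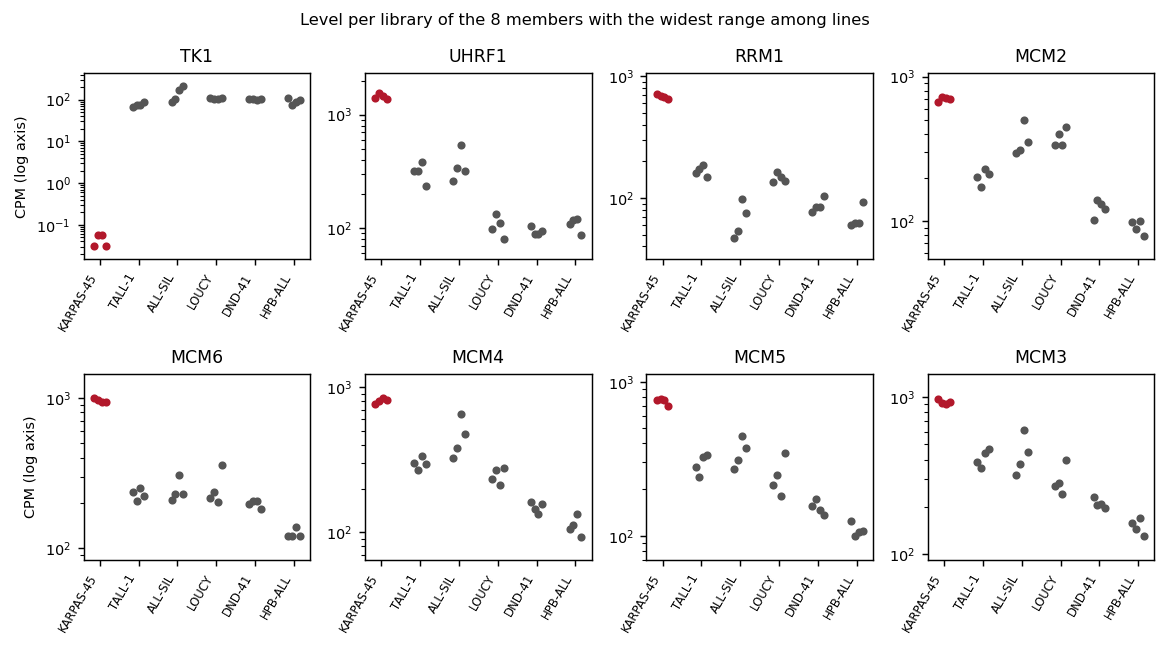
Level in CPM, on a log axis, of the 8 members with the widest range of line means, in 4 libraries of each of 6 untreated lines. KARPAS-45 (red) lies above every other library in 7 panels and far below them for TK1, where it averaged 0.0439 CPM.

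TK1, the kinase that salvages thymidine in S phase, broke the pattern. It had 2 to 4 counts in each KARPAS-45 library, 12 in all (95% exact Poisson interval 6.20 to 20.96, counting error only), against 4060 to 9741 counts in each library of the other lines. In CPM it had 0.0304, 0.0571, 0.0576 and 0.0307 in KARPAS-45, against 85.5, 104, 169 and 212 in ALL-SIL, 108, 104, 106 and 111 in LOUCY, 101, 102, 95.8 and 106 in DND-41, 107, 75.96, 89.6 and 97.4 in HPB-ALL and 67.96, 76.3, 75.8 and 86.5 in TALL-1. The fitted log2 fold change against the mean of the other lines was -11.10 ± 0.31 (edgeR adjusted p = 3.42e-20), a value that depends on how few reads are treated. Because KARPAS-45 enters the mean of the others, TK1 was called higher in each of the other 5 lines. With KARPAS-45 left out of that mean it was higher in ALL-SIL (0.61), lower in TALL-1 (-0.51) and not called in the other 3.

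The neighbourhood of TK1 was looked at after its value was seen. TK1 lies on chromosome 17 at 78174075 to 78187233 on the minus strand (GRCh38), and AFMID starts in the opposite direction at 78187317, inside the promoter window printed for TK1. AFMID had 0 or 1 counts in each KARPAS-45 library, 2 in all, against 646 to 2642 in each library of the other lines. SYNGR2, next to the end of TK1, had 5018 to 5703 counts in KARPAS-45 libraries, against 2128 to 7965 in the others. BIRC5, beyond AFMID, had 33962 to 41834 counts in KARPAS-45 libraries, against 3484 to 16900. KARPAS-45 libraries were deeper, so these 2 genes are also given in CPM before normalization. SYNGR2 averaged 65.5 CPM in KARPAS-45, against 42.4 to 137.6 CPM in libraries of the other lines. BIRC5 averaged 486 CPM, against 66.0 to 287.9 CPM. Reads were thus almost missing from both genes of the divergent pair and present on either side, and the cause was not tested.

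POLA2 and RFC2, a clamp loader subunit, were also lower in KARPAS-45, by 0.35 and 0.26 on the log2 scale, and POLD3 and CCNE1 were not called. Other lists had genes called in KARPAS-45 as well, where 39% of all genes were higher and 34.2% lower. Of 35 other replication genes, 23 were higher and 5 lower. Of 27 G1 to S control genes, 16 were higher and 1 lower, and of 30 G2 and M phase genes, 24 were higher and 2 lower. Examples are PRIM2, the primase partner of PRIM1 (log2 fold change 2.09), and HMMR, a spindle protein (2.51). All 13 mitochondrially encoded messenger RNAs were lower in KARPAS-45, with a sum of 11831 ± 3922 CPM, against line means of 34272 to 71430 CPM in the other lines, and the part of that shift in the members' values was not tested.

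KARPAS-45 also enters the mean that each of the other lines is set against, and it was higher for 43 of 48 members, so each line is given both ways, the second with KARPAS-45 left out of the mean, an alternative chosen after seeing the data. HPB-ALL had 5 members higher and 29 lower than the mean of the other 5 lines, against 39.6% and 23.4% of all genes, with a median of -0.47 over the members and 0.15 over all genes. Without KARPAS-45 in the mean it had 6 higher and 23 lower, against 36.6% and 23.2% of all genes, with a median of -0.20. All 6 MCM ring genes were lower both ways, with MCM2 at -1.72 and, without KARPAS-45, -1.41. LIG1 averaged 52.5 ± 12.2 CPM and was lower by 1.39 on the log2 scale. CCNE1 had its highest level in HPB-ALL, at 37.1 ± 6.11 CPM, against 23.2 ± 3.29 CPM in LOUCY and 8.50 to 13.7 CPM in the other lines (log2 fold change 1.57 ± 0.12, edgeR adjusted p = 4.36e-11). RFC3, DBF4 and GINS3 were also higher both ways.

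DND-41 had 3 members higher and 28 lower, against 34.4% and 23.3% of all genes. Without KARPAS-45 in the mean it had 4 higher and 16 lower, against 31.2% and 21.4% of all genes. Of the ring genes, MCM2, MCM3, MCM4 and MCM5 were lower both ways, and MCM6 and MCM7 only with KARPAS-45 in the mean. UHRF1 had a log2 fold change of -1.61 (-1.02 without KARPAS-45) and RFC3 of -1.33 (-1.12), while RFC2, its partner in the clamp loader, was higher at 0.74 (0.71).

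TALL-1 had 18 members higher and 9 lower, against 32.9% and 24.4% of all genes, and without KARPAS-45 in the mean 26 higher and 4 lower, against 31.3% and 24.8%. CHAF1B, a subunit of chromatin assembly factor 1, averaged 107.8 ± 16.4 CPM there (log2 fold change 1.22 ± 0.09, edgeR adjusted p = 1.24e-11). A difference from KARPAS-45, the next line, was not called (edgeR adjusted p = 0.187). PCNA was also higher in TALL-1 (0.65, and 0.87 without KARPAS-45). RRM2 was lower (-0.70) only with KARPAS-45 in the mean (-0.27 without it, edgeR adjusted p = 0.273).

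ALL-SIL had 10 members higher and 20 lower, against 33.8% and 25.4% of all genes, and without KARPAS-45 in the mean 15 higher and 14 lower, against 31.1% and 25.4%. Of the ring genes 5 of 6 were higher, with MCM4 at 0.87, and without KARPAS-45 MCM6 was higher too. The helicase activators were lower for 6 of 8 both ways, with GINS1 at -1.13 (-0.94 without KARPAS-45).

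LOUCY had 9 members higher and 16 lower, against 37.3% and 28.5% of all genes, a split that became 11 and 11 with RLE size factors. Without KARPAS-45 in the mean it turned to 15 higher and 7 lower, against 37.7% and 30.9% of all genes. CDT1 was lowest in LOUCY, at 61.1 ± 14.3 CPM, against line means of 153 to 247.7 CPM in the others (log2 fold change -1.80 ± 0.22, edgeR adjusted p = 7.59e-08, and -1.75 without KARPAS-45), while MCM2 was higher there (0.75, and 1.16 without KARPAS-45). The other lines had neighbours for CDT1 that did not differ.

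**Figure D5:**
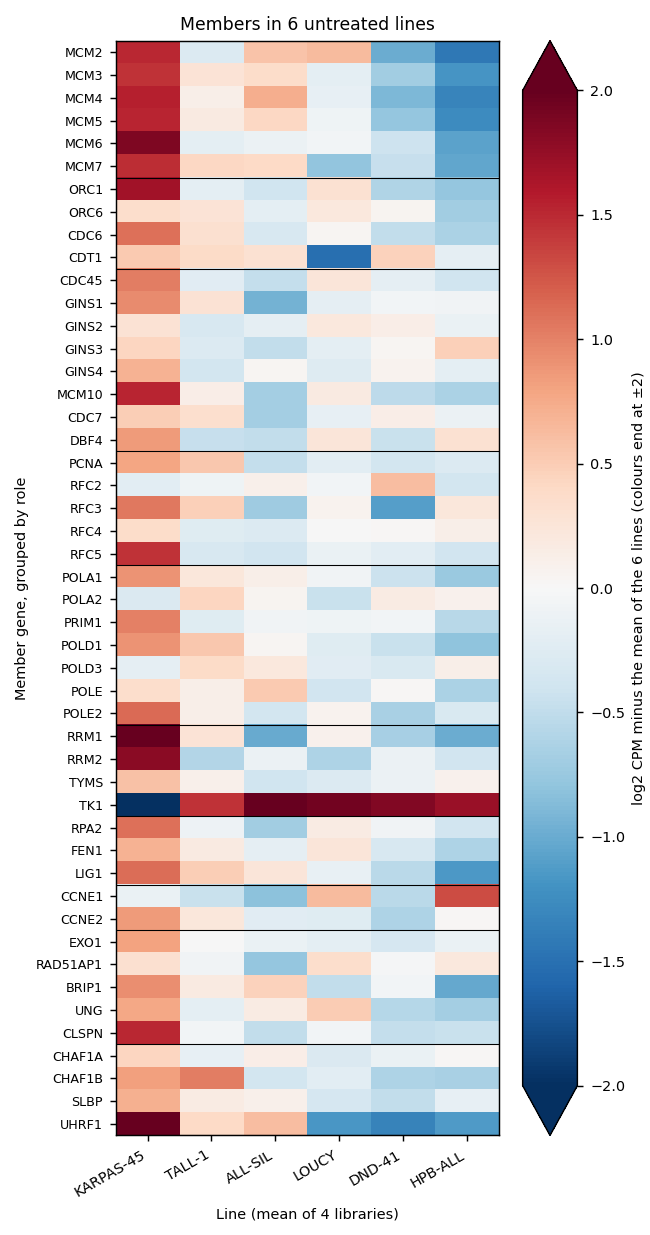
Mean log2 CPM of each of the 48 members in 6 untreated lines, as the difference from the mean of the 6 lines, grouped by role. Red is above and blue below that mean, colours end at ±2, and the KARPAS-45 column is red for nearly all members and blue for TK1, whose low mean makes the other lines red in that row.

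A G1 to S control gene also set lines apart. TFDP1, whose protein binds DNA together with an E2F factor, had 332, 383, 328 and 389.6 CPM in KARPAS-45 and 0.307, 0.348, 0.344 and 0.351 CPM in LOUCY, and it had 0.428, 0.692, 0.631 and 0.529 CPM in HPB-ALL. In the other 3 lines every library had at least 135 CPM. LOUCY and HPB-ALL were thus almost without TFDP1 (log2 fold changes -7.87 and -6.97 against means that hold each other), and their members' sums were 5887 ± 347 and 4693 ± 210 CPM. Of the lines with TFDP1, DND-41 had a sum of 5201 ± 346 CPM, below LOUCY. ALL-SIL had 6839 ± 1686, TALL-1 7251 ± 324 and KARPAS-45 15228 ± 457 CPM. Whether TFDP1 has a part in the members' levels was not tested.

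Counting leaves a limit on some members. In GENCODE 29, 7 members share at least 5% of their exon bases with another gene of at least 1 CPM, among them TYMS with ENOSF1 (39.15%) and CCNE2 with INTS8 (37.05%), both on the opposite strand. The strand setting of the counting is not known here, so reads of these overlaps could be split or lost. Overlaps on the same strand with genes under 1 CPM are outside that count. The largest is POLA2 with AP000944.2 (35.14% of exon bases, 0.04 CPM). RRM2 overlaps AC007240.1 (20.23%), which was not found among the genes counted. Reads shared in this way could be lost from both genes, a limit on the low level given for POLA2. For 10 members, among them PCNA, TYMS, RRM2, RPA2, UNG, RFC3, RFC5, FEN1 and DBF4, the annotation holds 18 pseudogenes of their name, whose reads may be exchanged with the gene's.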

How the data were processed

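RNA was sequenced from 40 libraries in 10 groups of 4, and the authors deposited raw counts per gene in 3 tables, 1 for each experiment. Reads were trimmed with Trimmomatic 0.39 and aligned with STAR 2.7.11b to GRCh38, per the submitters' processing notes. For the counting, the tool, strand setting and annotation were not given in the sources used here. Rows that name no gene (13.0 to 15.1% of counts in the labelled HPB-ALL table) were left out. Genes with low counts were filtered, TMM factors set the CPM scale, and edgeR 4.0.16 in R 4.3.3 (with limma 3.58.1) fitted the quasi-likelihood test to each whole table, with Benjamini-Hochberg adjustment over all genes tested and calls at 0.05. DESeq2 1.42.0 and other settings were alternatives. Scripts were tested on simulated data.

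Same-numbered Jurkat libraries deviated together (correlations of 0.574 to 0.741, each of 8 libraries best with its own number), so the numbers pair them. In the libraries labelled HPB-ALL the correlations were -0.211 to 0.042, and the numbers do not pair those libraries. Among the lines the correlations were -0.195 to 0.476 over 50 same-number pairs of lines. Whether the numbers pair the libraries of the lines was not tested against libraries of other numbers. No 2 libraries of a group agreed within counting error. The members and lists were chosen with earlier results of these data known. Values in every library are given for QKI, the 10, 5 and 5 members with the smallest p in the knockdowns and their difference, and the 8 with the widest range of line means, and up to 6 called genes of each other list could be named. Gene positions are from GENCODE 29, which was chosen here, and promoters from RefSeq. Intervals cover counting error only. The values of 1 member are not reported by name here.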

Additional observations from a re-analysis of the deposited data

Results flagged for a closer look

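In 3 of 110 groups of 4 libraries tested, 1 library stood far from the other 3 by Dixon's test at its 95% critical value, and chance flags about 1 in 20 groups. MCM6 had 138.6 CPM in HPB-ALL replicate 3, against 120.4 to 121.1 CPM in the other 3. MCM6 had 367.7 CPM in Jurkat NTC siRNA replicate 2, against 246 to 259 CPM in the others. RRM1 had 93.1 CPM in HPB-ALL replicate 4, against 60.2 to 62.6 CPM in the others. No cause was tested.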

How the results depend on the processing

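Counts of members called were recomputed with other size factors, filters and tools and without each library. With the replicate number as a block (pairing), 5 members had a different effect in the knockdowns, against 0 without it. In LOUCY 15 members were called with the block (4 higher and 11 lower), against 25. The block drops 2 LOUCY libraries there, because both of their columns carry replicate number 1 and neither could be tied to 1 sample. With the block 0 members were called in Jurkat and 21 in the libraries labelled HPB-ALL (18 higher and 3 lower). Of these, 19 were called without it too, MCM7 (adjusted p = 0.0793) and TYMS (0.0623) lost their calls, and CCNE1, lower, and 1 repair gene, higher, gained one. The LOUCY split of 9 higher and 16 lower became 11 and 11 with RLE size factors and with DESeq2. Leaving out 1 library gave 0 calls in Jurkat, 20 to 22 in the libraries labelled HPB-ALL, 0 for the difference, 29 to 32 in ALL-SIL, 21 to 28 in TALL-1, 30 to 35 in HPB-ALL, 28 to 32 in DND-41, 17 to 27 in LOUCY and 43 to 46 in KARPAS-45. Of single members' values, 681 kept their side of the threshold, 11 lost a call, 3 gained one and 0 changed sign under the alternatives other than that of the mean without KARPAS-45. With KARPAS-45 left out of the mean of the other lines, also chosen after seeing the data, 20 members were called in DND-41, against 31, and the LOUCY split became 15 higher and 7 lower. The ALL-SIL split became 15 higher and 14 lower, and TK1, called higher in TALL-1, was called lower. Jurkat fits with the block and each number left out, an alternative chosen after seeing the data, gave 0 members each. Where TK1 had 2 to 4 counts, depth limits the size of its difference.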
